A study of Mus musculus with 2 samples.

Results

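The genes described here are 40 cell-cycle genes of the mouse, encoding cyclins, cyclin-dependent kinases (CDKs), their inhibitors and phosphatases, the E2F and DP transcription factors and the retinoblastoma (Rb) family, out of 20953 protein-coding genes examined. They were taken from a fixed list of symbols and looked up among the genes listed for each Sox4 peak. That list was chosen with earlier results of these data known. A promoter peak means a peak whose interval came within 5 kb of the start (TSS) of any listed transcript of the gene. The data come from 1 pull-down library of tagged Sox4 (Sox4 bioChIP). An input chromatin library of the same cells belongs to the series and was not analysed here. Both samples are C57BL/6 progenitor B cells derived from embryonic fetal liver. Both had received retroviruses for the biotin ligase BirA, the p190 Bcr-Abl oncogene, SE-Cre and BAP-Sox4, with sorting after every step. The tagged Sox4 was thus virally supplied in cells immortalized by an oncogene, and the labels do not say whether the cells were a clone or a pool. The list held 8730 peaks. With 1 library there was no replicate, and no p-value was computed. The tag counts, fold values and scores of peaks are the authors' own and rank peaks within this list only, and the intervals on tag counts cover counting error only. A library without tagged Sox4 was not analysed here, so a peak by itself does not show that Sox4 was bound. No RNA was analysed here, so cell type markers could be read only as peaks, which are not expression. Promoter peaks were listed at 8 of 10 B-lineage marker genes and at none of 6 hepatocyte genes. They were listed at 2 of 6 T-lineage, 2 of 6 erythroid and 1 of 6 myeloid genes, and at 32.8% of all protein-coding genes, so the T-lineage and erythroid shares (33.3% each) lay at that of all genes. The B-lineage count depended on the window. Within 1 kb of a start it was 4 of 10, against 30.2% of all genes. Over a start it was 3 of 10, against 28.4% of all genes, and so near the share of all genes.

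Cyclins are proteins that switch on CDKs, and the levels of many of them rise and fall through the cell cycle. D cyclins with Cdk4 or Cdk6, and then cyclin E with Cdk2, phosphorylate Rb and its relatives, which releases E2F-DP dimers to drive the genes of S phase. Cyclin A and cyclin B with Cdk1 carry the cell into mitosis, while CIP/KIP and INK4 proteins hold CDKs in check. In progenitor B cells, cytokine and pre-B-cell receptor signals act on cell division through D cyclins, and the Cdkn2a locus is known as a barrier to transformation by Bcr-Abl. Sox4 binds DNA through an HMG box, and early B cells depend on it.

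Most of the cyclin, CDK, E2F and Rb genes had a Sox4 peak at the promoter. There were 30 of 40 with a promoter peak (75%), against 32.8% of all protein-coding genes. The peak interval covered a start in 25 of the 40, against 28.4% of all genes. With the whole gene and 10 kb on either side counted, 33 of the 40 had a peak, against 40.8% of all genes. Within 1 kb of a start it was 28 members, against 30.2% of all genes. When a peak counted only for the gene named as closest, it was 27 members, against 27.7% of all genes. Among peaks of fold 10 or more it was 1 member, Ccne2, against 1.48% of all genes. In all, 36 members were listed for a peak at any distance, against 48.9% of all genes. They were listed with 62 different peaks, 34 of which were promoter peaks. The members just inside and just outside the window of 5 kb were E2f2, with a peak 4578 bp inside the gene, and E2f4, with a peak 7630 bp upstream. No peak was listed for Ccnb1, Cdc25c, Cdkn1c and E2f6, and the list does not show whether the annotation behind it held these genes. Of 39 genes of other cell-cycle regulators, 31 had a promoter peak (79.5%), so a high share was not limited to the members. Both lists were chosen with earlier results of these data known, so neither share is independent of them. Expression was not analysed here, and none of the counts was set against genes of matched expression.

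**Figure D1:**
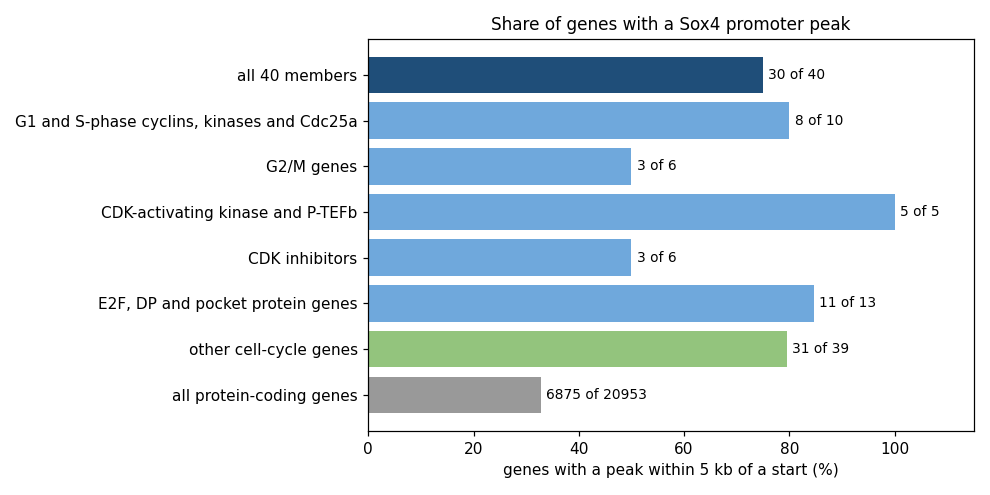
Share of genes with a peak within 5 kb of a start, in percent, for the 40 members, their 5 role groups, 39 other cell-cycle genes and all protein-coding genes; the label beside each bar gives the count. The members stand at 75% and all protein-coding genes at 32.8%, and the G2/M genes and the CDK inhibitors have the lowest shares of the role groups, at 50% each.

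By cell-cycle role, the promoter peaks were spread unevenly. Of the cyclins, kinases and phosphatase of G1 and S phase, 8 of 10 had a promoter peak. Of the E2F, DP and pocket protein genes it was 11 of 13, and of the genes of the CDK-activating kinase and of the transcription kinase P-TEFb 5 of 5. Among the G2/M genes it was 3 of 6, and among the CDK inhibitors 3 of 6. With groups this small the differences between roles were not tested, and each share lay above the 32.8% of all genes. With a peak given only to its closest gene, the P-TEFb count was 0 of 3, against 27.7% of all genes.

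Promoter sequences are shown for members whose peaks were strong, for Cdkn2a and Cdk1, and for Cdk2 and Ccnb1, which had no promoter peak. They are the 250 bases before the start, 5′ to 3′ on the strand of the gene, from RefSeq (GRCm38.p6). The peak list uses mm9, so these positions cannot be set against the peaks base by base, and the starts of this table were not checked against the starts used for the list. Capitals mark, on either strand, the E2F word GCGGGAA and its variant GCGCGAA, the longer E2F words TTTGGCGC and TTTCGCGC, the E box CACGTG, the CHR word TTTGAA of G2/M genes, the CCAAT box and the SOX word AACAAT with its longer form AACAAAG.
Cdk4 (chr10:127063285-127063534, strand +): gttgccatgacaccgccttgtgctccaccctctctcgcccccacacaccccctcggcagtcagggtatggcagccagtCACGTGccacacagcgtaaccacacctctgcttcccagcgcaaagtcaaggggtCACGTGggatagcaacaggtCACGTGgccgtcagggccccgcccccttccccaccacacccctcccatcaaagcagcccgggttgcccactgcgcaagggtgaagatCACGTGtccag
Cdc25a (chr9:109875329-109875578, strand +): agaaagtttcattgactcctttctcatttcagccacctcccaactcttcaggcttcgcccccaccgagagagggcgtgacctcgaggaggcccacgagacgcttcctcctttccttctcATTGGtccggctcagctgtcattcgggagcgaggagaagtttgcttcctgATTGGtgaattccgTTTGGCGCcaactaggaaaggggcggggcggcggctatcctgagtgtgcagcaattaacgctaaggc
E2f3 (chr13:29986064-29986313, strand -): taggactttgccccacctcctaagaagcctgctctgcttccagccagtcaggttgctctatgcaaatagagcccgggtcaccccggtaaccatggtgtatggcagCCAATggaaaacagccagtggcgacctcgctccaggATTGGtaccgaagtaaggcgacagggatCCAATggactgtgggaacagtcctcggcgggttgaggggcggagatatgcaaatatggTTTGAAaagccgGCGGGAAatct
Rbl1 (chr2:157204535-157204784, strand -): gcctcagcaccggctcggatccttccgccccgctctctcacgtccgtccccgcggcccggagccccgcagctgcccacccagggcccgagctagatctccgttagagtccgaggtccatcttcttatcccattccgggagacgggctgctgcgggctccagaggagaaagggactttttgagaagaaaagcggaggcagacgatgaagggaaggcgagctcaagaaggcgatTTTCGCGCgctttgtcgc
Cdkn2a (chr4:89294620-89294869, strand -): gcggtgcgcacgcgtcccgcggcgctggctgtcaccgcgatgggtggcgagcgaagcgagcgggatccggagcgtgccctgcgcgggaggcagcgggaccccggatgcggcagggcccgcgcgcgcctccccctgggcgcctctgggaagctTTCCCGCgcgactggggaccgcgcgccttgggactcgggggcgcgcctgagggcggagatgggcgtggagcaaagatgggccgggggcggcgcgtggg
Cdk1 (chr10:69352913-69353162, strand -): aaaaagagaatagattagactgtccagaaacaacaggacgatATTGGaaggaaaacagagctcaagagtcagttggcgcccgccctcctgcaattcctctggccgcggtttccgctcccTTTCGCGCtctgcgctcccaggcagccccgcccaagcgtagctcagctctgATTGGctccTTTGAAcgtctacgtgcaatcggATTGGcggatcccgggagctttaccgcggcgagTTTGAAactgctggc
Cdk2 (chr10:128705052-128705301, strand -): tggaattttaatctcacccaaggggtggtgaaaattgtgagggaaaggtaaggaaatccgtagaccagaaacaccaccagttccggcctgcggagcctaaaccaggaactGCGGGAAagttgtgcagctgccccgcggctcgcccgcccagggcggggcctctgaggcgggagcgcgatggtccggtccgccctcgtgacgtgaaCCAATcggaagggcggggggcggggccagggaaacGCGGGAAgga
Ccnb1 (chr13:100786487-100786736, strand -): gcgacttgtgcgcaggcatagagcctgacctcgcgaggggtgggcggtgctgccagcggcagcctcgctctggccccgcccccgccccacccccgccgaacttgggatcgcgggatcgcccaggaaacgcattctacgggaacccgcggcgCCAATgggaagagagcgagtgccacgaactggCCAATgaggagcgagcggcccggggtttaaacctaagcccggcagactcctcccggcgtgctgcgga
For Cdkn2a and E2f3 the more upstream of the 2 starts in the table is shown.

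In these letters, the Cdk4 promoter held the E box 4 times, at first bases 172, 118, 98 and 11 before the start. An E box is the word read by Myc and its relatives, and Cdk4 is known as a Myc target. Rbl1 had TTTCGCGC, which contains GCGCGAA on the other strand, beginning 18 bases before the start. Cdc25a had TTTGGCGC beginning 67 bases before it, and E2f3 had GCGGGAA beginning 11 bases before it. Cdk1 combined TTTCGCGC, 2 CHR words and 3 CCAAT boxes. Cdk2 held GCGGGAA at 2 places although no promoter peak was listed for it, and Ccnb1 held 2 CCAAT boxes. Neither SOX word occurred in any of the sequences shown.

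Across the 29 members with a promoter sequence, searched from 250 bases before to 50 after the start on both strands, GCGGGAA or GCGCGAA was found in 8 (27.6%), against 9.19% of 16783 protein-coding genes. These members were Cdk1, Cdk2, Cdkn2a, Cdkn2c, E2f3, E2f7, Rbl1 and Tfdp1. Of the members with a promoter peak 7 of 22 had such a word, and of those without 1 of 7. Over all genes the word was also more frequent with a promoter peak (15.2%) than without one (6.2%). The E2f1 start in this table appears to lie in the coding part of the gene, so its letters are not shown and its count is not to be read. Without E2f1, an alternative chosen after seeing the data, the count was 8 of 28. The longer E2F words, chosen after the sequences were seen, were found in 5 members (17.2%), against 1.26% of all genes. Among genes with a promoter peak it was 5 of 22 members, against 2.3% of all such genes. The E box, also chosen then, was found in 6 members (20.7%), against 9.19% of all genes. With a promoter peak it was 5 of 22 members, against 12.9% of all such genes. The CCAAT box stood in 17 members (58.6%, against 42.7% of all genes) and the GC box GGGCGG in 26 (89.7%, against 50.9%). Without E2f1 the GC box count was 25 of 28, and the counts of the other words did not change. The CHR word was found in 7 members (24.1%, against 17.8% of all genes). A SOX word stood in 4 members, namely Ccnb2, Cdk6, E2f7 and Tfdp2 (13.8%, against 15.2% of all genes). Over all genes, SOX words were less frequent where the list had a promoter peak (10.8%, against 17.4% without one) and GC boxes more frequent (75.2%, against 38.8%). The GC content of the same windows moved with this, at a median of 62.7% for genes with a promoter peak, against 53.3% for genes without one. Among the members it did not, at 63.8% for the 22 with a promoter peak and 66.3% for the 7 without one. Its part in the word counts was not tested. Short words such as these also occur by base composition, and peaks can lie outside the window. The 11 members not matched to the table were Ccnd1, Ccnd2, Ccne2, Ccna2, Ccnh, Cdkn1c, E2f4, E2f5, Rb1, Cdc25c and Wee1.

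The 30 members with a promoter peak had wider and higher-scoring peaks than the usual gene with one. Taking the highest-scoring promoter peak of each gene, their median was 1288.5 bp wide with 108.5 tags and a score of 175.4. For all 6875 genes with a promoter peak these medians were 983 bp, 78 tags and a score of 119.2. The score was read as minus 10 times the log10 of a p-value, and tags are counted over the whole width, so both grow with a wider peak. The median fold over background, which is a ratio, was 4.675 for the members, against 4.51 for all genes. Of the 30 genes, 22 scored above the median of all genes with a promoter peak and 19 had a fold above it. The fold of 5 members, Ccne2, E2f1, Rbl1, Cdk4 and E2f3, exceeded that of 91.7% or more of all genes with a promoter peak. The next highest, at Cdk7, exceeded 83.6% of them.

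**Figure D2:**
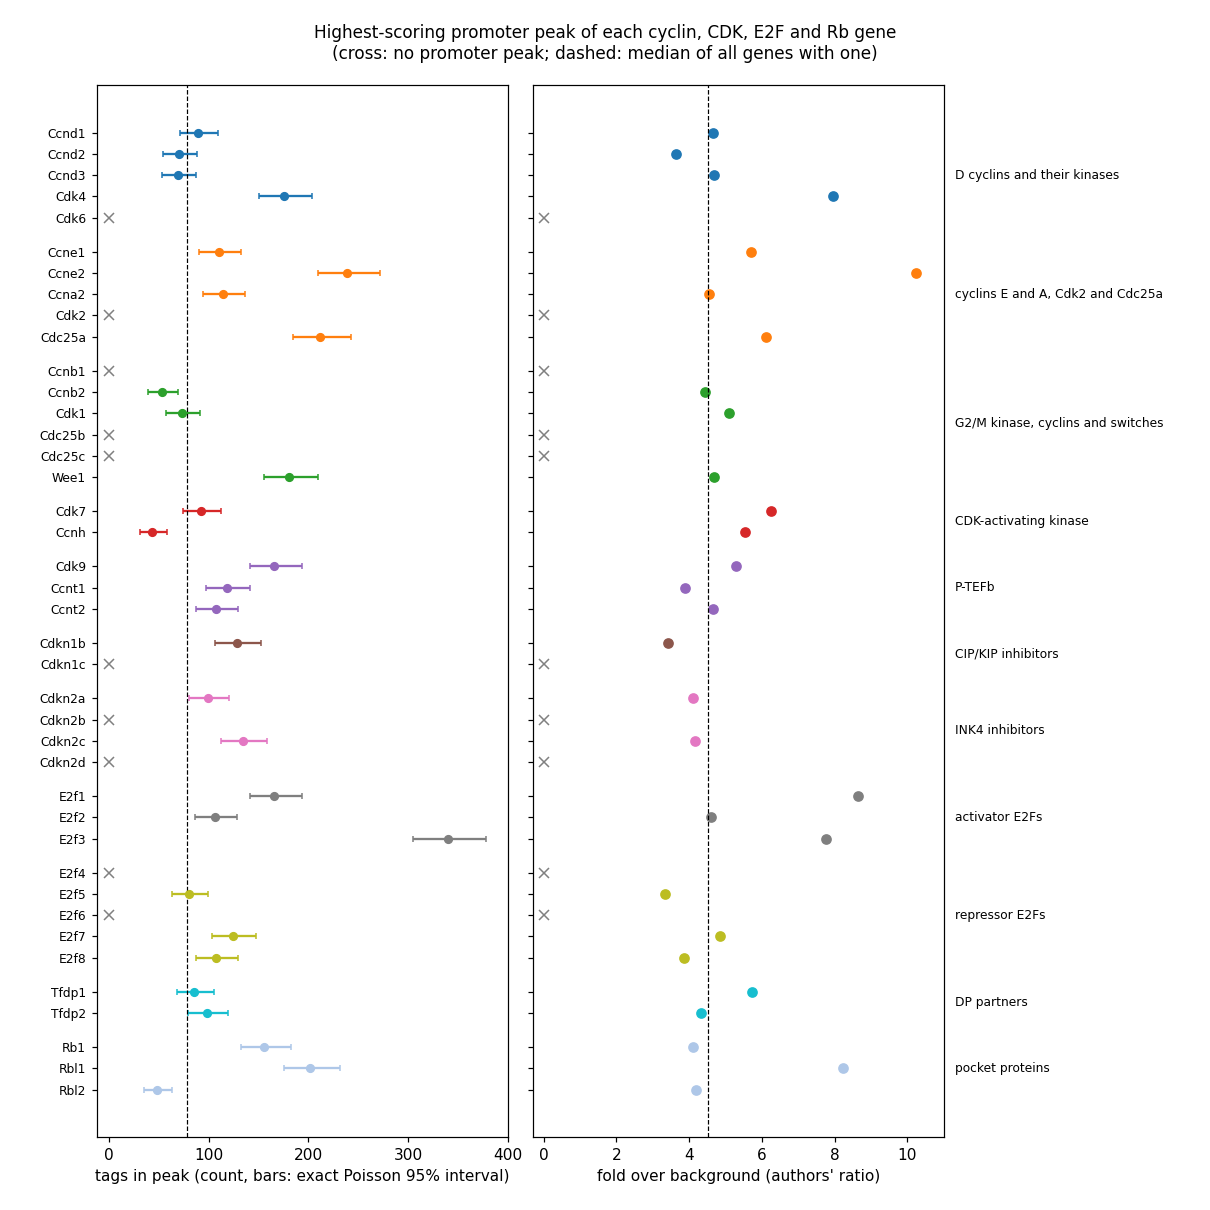
Tags in the highest-scoring promoter peak of each member (left; count with exact Poisson 95% interval) and its fold over background (right; the authors' ratio), with members ordered by role, crosses for members without a promoter peak and dashed lines at the medians of all genes with one. E2f3 has the most tags (340) and Ccne2 the highest fold (10.2), while Ccnh and Rbl2 have the fewest tags (43 and 48).

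The D cyclin genes had pairs of moderate peaks and the gene of their kinase Cdk4 a strong one. Ccnd1, the D cyclin most often tied to growth factor signals, had peaks 1112 and 2719 bp upstream of its start and none over it. These had 80 tags (exact 95% interval 63.4 to 99.6) at a fold of 3.60 and 89 tags (71.5 to 109.5) at a fold of 4.67. Ccnd2, a D cyclin gene known as a STAT5 target in lymphocytes, was alike in layout. Its peaks lay 883 and 3691 bp upstream, with 70 tags (54.6 to 88.4; fold 3.64) and 40 tags (28.6 to 54.5; fold 4.03). Ccnd3, which early B-cell expansion is known to require, had a peak over the start of its long transcripts, with the summit 11 bp upstream of it. That peak counted 69 tags (53.7 to 87.3; fold 4.68). A second peak 2386 bp upstream covered the start of Taf8, which the list names as its closest gene (58 tags, fold 4.85). All 3 D cyclin genes therefore had 2 promoter peaks, as did only Cdk9 among the other members with a promoter peak. Members with more than 1 were 4 of 30 (13.3%), against 9.61% of all genes with a promoter peak.

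Ccnd3 also carried 3 intronic peaks, at 16477, 36772 and 51602 bp inside the gene. The middle one was the strongest of the Ccnd3 peaks, with 71 tags (55.5 to 89.6), a fold of 5.98 and score 163.7, compared with a score of 106.2 for the peak over the start. The start of its shorter transcript NM_007632 lay 88416 bp downstream of the first, and no peak was listed within 5 kb of that start. Cdk4 encodes a kinase partner of the D cyclins. Its start was covered by a peak at chr10:126500176-126501522 (mm9) with 176 tags (151 to 204; fold 7.96), and its score (532.8) was above that of 94.9% of genes with a promoter peak. The summit lay 448 bp inside the gene. Cdk6, which encodes the alternative kinase, had no promoter peak. Its peak lay 158047 bp inside the gene in an intron, with 62 tags (47.5 to 79.5) at a fold of 5.88.

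**Figure D3:**
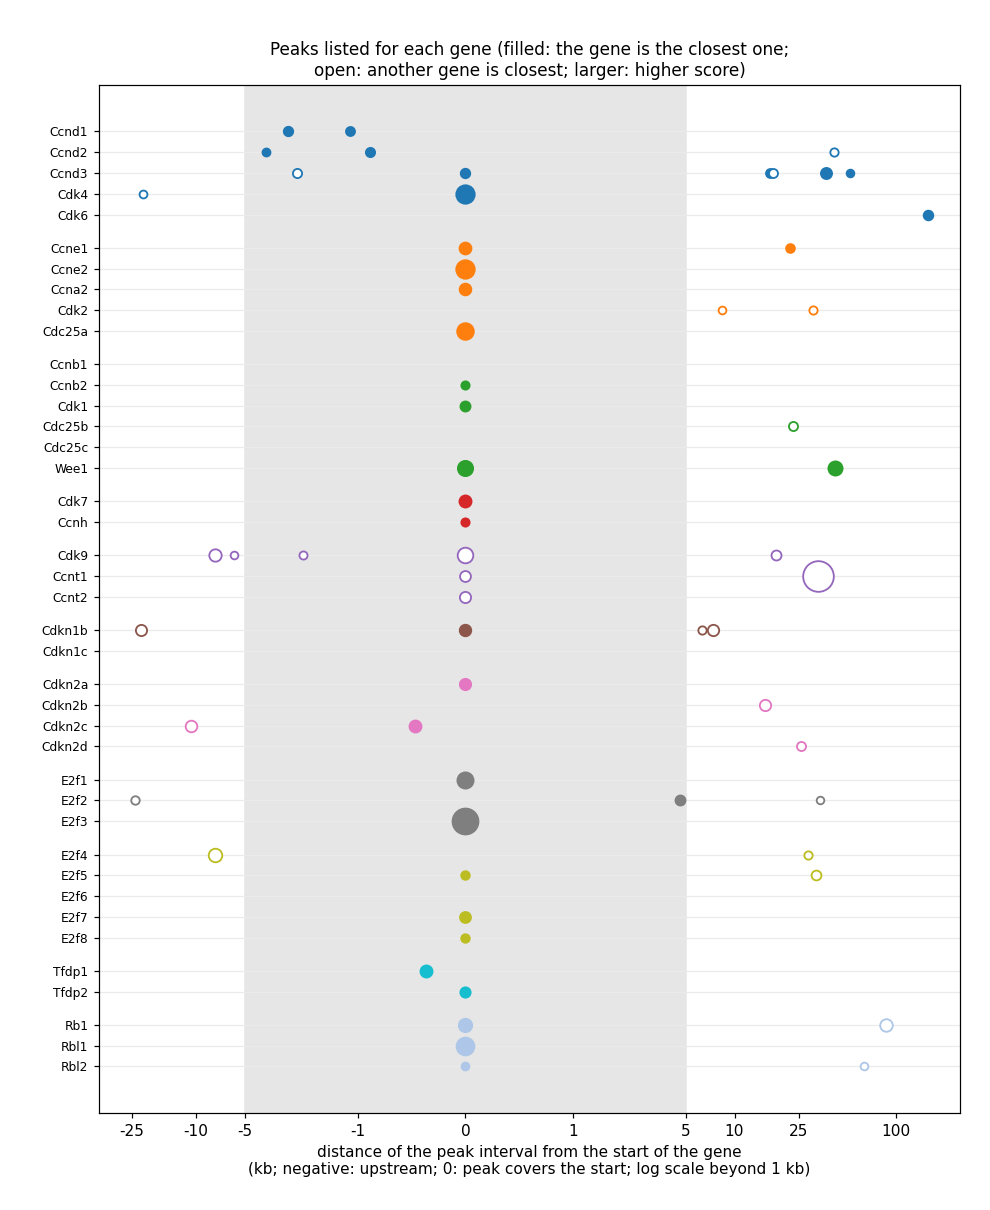
Distance in kb of each listed peak interval from the start of each member (log scale beyond 1 kb; grey band: 5 kb on either side), with filled circles where the member is the closest gene, open circles where another gene is closer, and circle size growing with the score. Most members have a peak at 0, while Ccnd1, Ccnd2, Cdkn2c and Tfdp1 have theirs upstream and E2f2 has its promoter peak 4578 bp downstream.

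At the genes of the G1/S transition, cyclin E2 had the promoter peak with the highest fold of the members. Ccne2 encodes one of the cyclins that activate Cdk2. Its start was covered by a peak at chr4:11117225-11119243 (mm9), 2019 bp wide, with 239 tags (209.7 to 271.3), a fold of 10.2 and score 537.5. Ccne1, encoding the other E cyclin, had 110 tags (90.4 to 132.6) at a fold of 5.71 over its start. The intervals on the tag counts of the 2 genes do not overlap, but the Ccne2 peak was also wider than that of Ccne1 (1295 bp). A further Ccne1 peak lay 12462 bp past the end of the gene (63 tags, fold 4.26). Cdc25a encodes the phosphatase that removes the inhibitory phosphates from Cdk2. It had a broad peak of 2192 bp over the start at chr9:109777578-109779769 (mm9) with 212 tags (184.4 to 242.5), a fold of 6.11 and score 426.7. Ccna2, the cyclin of S phase and G2, had 114 tags (94.0 to 136.9) at a fold of 4.56. Cdk2 was the exception among these genes. It was listed for a peak 1281 bp past its end that covered the start of Rab5b and for one 23398 bp past it at Suox, at folds of 2.83 and 2.74.

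Among the G2/M genes, Wee1 had the widest and highest-scoring promoter peak, but not the highest fold. It encodes the kinase that keeps Cdk1 inactive. The peak over its start at chr7:117264934-117266819 (mm9) held 181 tags (155.6 to 209.4) at a fold of 4.68 (score 349.3). A distal peak 20635 bp past the end of Wee1, for which Wee1 was the only gene listed, had 130 tags (108.6 to 154.4) and a fold of 10.01, higher than at the start. Cdk1, the mitotic kinase, had 73 tags (57.2 to 91.8) at a fold of 5.09, above that at the Wee1 start. The Wee1 promoter peak was 1886 bp wide, against 1087 bp for Cdk1 and 785 bp for Ccnb2, so the tag counts do not compare equal widths. Ccnb2, encoding one of its cyclins, had 53 tags (39.7 to 69.3; fold 4.45), and its score (68.2) was above that of 15.8% of genes with a promoter peak. The other B-type cyclin gene, Ccnb1, had no listed peak, nor did Cdc25c, which encodes a phosphatase of mitotic entry. Cdc25b, encoding a related phosphatase, was listed only for a peak at the start of Ap5s1, 11340 bp past its end (54 tags, fold 4.99).

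Cdk7 and cyclin H form the kinase that activates other CDKs and also phosphorylates RNA polymerase II. Both genes had a peak over the start, with 92 tags (74.2 to 112.8) at a fold of 6.26 for Cdk7 and 43 tags (31.1 to 57.9) at a fold of 5.55 for Ccnh. The Ccnh peak held the fewest tags of the members' highest-scoring promoter peaks, though its fold was above that of 74.9% of genes with one. Cdk9 with cyclin T1 or T2 forms P-TEFb, which releases paused RNA polymerase II. All 3 starts were covered, but each of these peaks covered the start of a noncoding neighbour too. At Cdk9 the peak at chr2:32567468-32569171 (mm9) had 166 tags (141.7 to 193.3) at a fold of 5.29 and covered the starts of Mir2861 and Mir3960. At Ccnt1 it had 118 tags (97.7 to 141.3; fold 3.90), shared with 9330020H09Rik. At Ccnt2 it had 107 tags (87.7 to 129.3; fold 4.65), shared with 2900009J06Rik. In each case the list names the neighbour as closest, and with a peak given only to its closest gene none of the 3 P-TEFb genes had a promoter peak. These were the only 3 of the 30 members with a promoter peak whose highest-scoring one covered another start (10%, against 24.4% of all genes with a promoter peak). Ccnt1 was also listed for the highest-scoring peak of any member. It lay 8540 bp past the end of Ccnt1 and covered the start of Kansl2 (280 tags, 248.2 to 314.8; fold 29.6; score 1562.1).

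Of the CDK inhibitors, Cdkn1b, Cdkn2a and Cdkn2c had promoter peaks. Cdkn1b encodes p27, an inhibitor of Cdk2 complexes. Its start was covered by 128 tags (106.8 to 152.2) at a fold of 3.41, lower than the fold of most genes with a promoter peak (it exceeded that of 11.2% of them). Peaks 1170 and 2281 bp past the end of Cdkn1b were assigned to 1190002F15Rik, a noncoding RNA gene named Lockd in the RefSeq table. The further of them covered the Lockd start and had 155 tags (131.6 to 181.4) at a fold of 4.90. Cdkn1c, encoding p57, had no listed peak. Cdkn2a makes p16INK4a and p19ARF from separate starts. The peak at chr4:88940281-88941504 (mm9) covered the start of NM_009877, the upstream of the 2 listed transcripts, and lay 12186 bp upstream of the start of NM_001040654. With 99 tags (80.5 to 120.5) its fold was 4.12, and no peak was listed within 5 kb of the downstream start. The upstream start is that of the ARF transcript. The same peak was the only one listed for Cdkn2b, encoding p15, and lay 10694 bp past its end. Cdkn2c, encoding p18, had 134 tags (112.3 to 158.7) at a fold of 4.17 in a peak 469 bp upstream of the start of NM_007671. Its summit lay 1445 bp upstream, and the RefSeq table holds 2 starts of Cdkn2c that are 1384 bp apart. Cdkn2d, encoding p19INK4d, was listed only for a peak at the Atg4d start, 22889 bp past its end (49 tags, fold 4.30).

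Most E2F genes had a promoter peak, and the strongest were at activators. The activators E2f1, E2f2 and E2f3, which drive S-phase genes, all had a promoter peak. E2f3 had the widest and highest-scoring promoter peak of the members, at chr13:30075329-30078412 (mm9). It spanned 3084 bp with 340 tags (304.8 to 378.1; fold 7.76), and by score (1101.8) it stood at rank 104 of 8730 peaks. The RefSeq table gives E2f3 a pair of starts 1672 bp apart, a spacing smaller than the peak. E2f1 had 166 tags (141.7 to 193.3) at a fold of 8.63 (score 399.9) at chr2:154394562-154396173 (mm9). The E2f2 peak lay in an intron, 4578 bp inside the gene, with 106 tags (86.8 to 128.2) at a fold of 4.60. The RefSeq table holds 2 starts of E2f2 that are 8508 bp apart. Within 1 kb of a start, 2 of the 3 activators had a peak, against 30.2% of all genes. Of the repressor E2Fs, E2f5, E2f7 and E2f8 had a peak over the start. E2f7 and E2f8 encode the atypical E2Fs, which bind DNA without a DP partner. E2f7 had 124 tags (103.1 to 147.8) at a fold of 4.84, E2f8 had 107 tags (87.7 to 129.3) at a fold of 3.85, and E2f5 had 80 tags (63.4 to 99.6) at a fold of 3.33. The lowest score among the activators was 124.4, at E2f2, and the scores of E2f5 and E2f8 were 77.9 and 77.2, while that of E2f7 was 156.8. The scores of the activators and repressors thus overlapped. E2f4, encoding a main repressor of the family in resting cells, was listed for a peak 7630 bp upstream at the start of 4931428F04Rik (131 tags, fold 6.18), and E2f6 for none.

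The DP partners and the pocket proteins all had promoter peaks, but of unequal strength. Tfdp1, encoding the main DP partner, had 85 tags (67.9 to 105.1) at a fold of 5.73 in a peak 368 bp upstream of its start. Tfdp2 had 98 tags (79.6 to 119.4) at a fold of 4.33 over its start. Rbl1 encodes p107, a relative of Rb that is itself made in cycling cells. Its peak at chr2:157029343-157030876 (mm9) held 202 tags (175.1 to 231.9) at a fold of 8.22 (score 496.5). Rb1 had a broader peak of 1937 bp over its start with 156 tags (132.5 to 182.5), a fold of 4.12 and score 261.1. Rbl2 encodes p130, the pocket protein that prevails in resting cells. Its peak held 48 tags (35.4 to 63.6) at a fold of 4.19. With 57.5 it had the lowest score of the members' highest-scoring promoter peaks, above that of 6.4% of genes with one. In tags the 3 intervals of this family separate Rbl2 from the other pocket protein genes, while those of Rbl1 and Rb1 overlap. The Rbl2 peak was also the narrowest, at 738 bp against 1534 bp for Rbl1 and 1937 bp for Rb1. The tag counts thus do not compare equal widths, and by fold Rbl2 (4.19) was not below Rb1 (4.12). Per kb of peak the values were 131.7 tags for Rbl1, 80.5 for Rb1 and 65.0 for Rbl2. A further Rb1 listing was a peak 86357 bp inside the gene that covered the start of Lpar6, a receptor gene that lies within Rb1 (137 tags, fold 4.44).

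**Figure D4:**
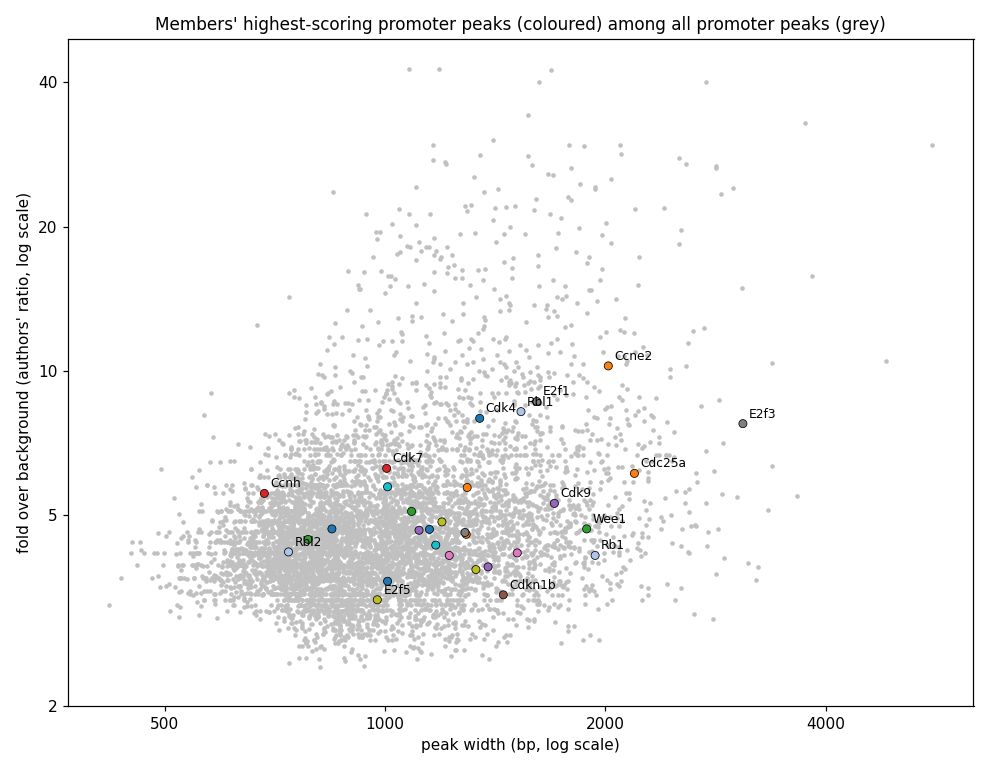
Fold over background against peak width in bp (log scales) for all promoter peaks (grey) and the highest-scoring promoter peak of each member that has one (coloured by role). Ccne2, E2f1, Rbl1, Cdk4 and E2f3 lie at folds from 7.76 to 10.2, whereas the broad peaks of Rb1 and Wee1 lie at folds of 4.12 and 4.68.

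Where the list itself fixes the position of a start, through a peak elsewhere in or near the same transcript, the summit could be set against it. This was possible for 14 members. For peaks over the start, summits ran from 292 bp upstream, at Cdk9, to 448 bp downstream, at Cdk4. Wee1 (42 bp downstream), Rbl2 (35 bp downstream), Cdkn1b (96 bp upstream) and Ccnd3 (11 bp upstream) had theirs within 100 bp of it. Rb1 and Ccnt1 had theirs 280 and 269 bp upstream, Ccne1 146 bp upstream and E2f5 253 bp downstream.

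Peaks away from the promoter were mostly those of neighbours. Of 29 listings of a member beyond 5 kb, 21 were promoter-class peaks of another gene. Those for which the member was itself the closest gene were the 3 intronic peaks of Ccnd3, the intronic peak of Cdk6 and the peaks past the ends of Ccne1 and Wee1. The listings of E2f2 for a peak at the end of Id3 and of Rbl2 for a peak in an exon of Aktip made up the rest.

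Other regulators of the same pathway were counted from a separate list of 39 genes, of which 31 had a promoter peak, against 32.8% of all genes. All 9 genes grouped with the ubiquitin ligases SCF and APC/C on the list had one, the CDK-binding Cks1b and Cks2 among them. So did the 5 further CDK genes and the 4 partners of Cdk7 and P-TEFb. The count was 4 of 7 for the MuvB complex and its partners 6 of 9 for further cyclins and 3 of 5 for further regulators. The highest score was at Ccng2, encoding an atypical cyclin of growth arrest (324 tags, fold 18.5, score 1225.7). It was followed by Rbbp4, whose histone-binding product is part of MuvB (215 tags, fold 10.4, score 723.1), where the start of Zbtb8os lay under the same peak. Next came the transcription kinase gene Cdk13 (fold 6.5, score 570.3), Cdk19 of the Mediator kinase family (fold 6.46, score 427.3) and Cul1, the scaffold of SCF (fold 5.18, score 379.6). Those without a promoter peak were Lin37, Lin52, Mybl2, Ccna1, Ccnb3, Ccng1, Cdc14b and Cdkn1a, which encodes the inhibitor p21. The median score of the 31 was 119.0 and their median fold 4.39, against 119.2 and 4.51 for all genes with a promoter peak.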

How the data were processed

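Sox4 pull-down chromatin of 1 library was analysed as a deposited peak list; an input library was not used here. Bowtie 0.12.8, MACS 1.4.2 and the build mm9 were used, per the submitters' processing notes; their parameters, the control and the annotation tool are not given in the sources used here. Per the file headers, each peak has a tag count (deposited as a whole-number count of reads, not scaled to depth), a fold (deposited as a linear ratio of tags to the background) and a value that the authors label as a p-value. That deposited score was read as minus 10 log10 p, since its lowest value, 50.03, lies just above the usual MACS threshold of 50. The depth of the library is unknown. Whether starts count from 0 or 1 is not stated.

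Distances to TSS and gene end were taken as deposited (from the peak interval, 0 where it overlaps). Listings run to 25 kb from a gene. Of 15228 listed transcripts, 14992 matched the RefSeq table (GRCm38.p6) by accession, 192 by symbol, 32 by older symbol and 12 not. As background served 20953 protein-coding genes of the autosomes and chromosome X that have an NM transcript. Where a gene had several promoter peaks, the highest-scoring was used. Tag counts have exact Poisson 95% intervals, which cover counting error only. Words were counted in RefSeq promoters from 250 bases before to 50 after the start. All 40 members are named; of the other cell-cycle genes, the 5 with the highest score and those without a promoter peak are named. The members and lists were chosen with earlier results of these data known. The counting was tested on simulated data. Alternatives were windows of 1 and 20 kb, starts covered, higher-scoring peaks (score of 104.9 or more), fold of 10 or more, closest gene only and, chosen after seeing the data, peaks over no other start. Python 3.11.15, pandas 2.3.3, scipy 1.17.1 and matplotlib 3.10.9 were used.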

Additional observations from a re-analysis of the deposited data

How the results depend on the processing

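The count of 30 of 40 members with a promoter peak was 28 with a TSS window of 1 kb (30.2% of all genes), 25 for starts covered (28.4%), 33 with 20 kb (41.9%), 27 for the closest gene only (27.7%), 28 with peaks over no other start (25.5%) and 23 among the higher-scoring peaks. Of all genes, 18.9% had a promoter peak among the higher-scoring peaks and 1.48% at a fold of 10 or more. At that fold 1 member, Ccne2, and 2 other cell-cycle genes retained one. The count was then 1 for cyclins E and A, Cdk2 and Cdc25a, and 0 for each of the other 10 roles. With the higher-scoring peaks it was 2 for D cyclins and their kinases, 1 for the CDK-activating kinase, 1 for repressor E2Fs and 19 for the other cell-cycle genes. For starts covered it was 2 for D cyclins and their kinases, 1 for INK4 inhibitors and 1 for DP partners. P-TEFb genes had 0 with the closest gene only and 1 with peaks over no other start. Fewer peaks, a narrower window or fewer genes per peak lower such counts by construction. The gene-body count of 33 was 36 for any listing (48.9% of all genes) and 26 among the higher-scoring peaks (24.1%). The members' median percentile among genes with a promoter peak was 70.4 by score, 55.4 by fold, 68.8 by tags per kb and 71.7 for the peak nearest the TSS. Depth and the lack of a replicate limit all values: a gene without a listed peak may have had one under the threshold. No paired analysis was possible because each group has 1 sample.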
